A study of Mus musculus with 6 samples.

Results

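Retinal RNA of 10 genes of the leukemia inhibitory factor (LIF) and STAT3 injury response was examined in adult Trim9 KO mice and their WT littermates. The genes were Lif, Osmr, Stat3, Socs3, Cebpd, Bcl3, Fgf2, Edn2, Serpina3n and Lcn2, and every probe set whose annotation names exactly 1 of them was taken. This gave 19 probe sets (groups of short oligonucleotides that read 1 transcript) of 45037, for 10 of 18193 measured genes. The brightest probe set of a gene, by its mean over the 6 arrays, stood for the gene, and genotype played no part in that choice. The genes were selected on the comparison of Trim9 KO with WT signal in these same arrays, so their differences between genotypes are given as descriptions and not as independent tests.

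In the injured retina, stressed photoreceptors are known to prompt a subset of Müller glia, the radial glia of the retina, to secrete LIF. LIF binds its receptor together with the shared subunit gp130 on Müller glia and photoreceptors, Janus kinases (JAK) then phosphorylate STAT3, and STAT3 enters the nucleus and switches on genes that include Socs3, its own feedback inhibitor. Photoreceptors under stress make endothelin 2, encoded by Edn2, and the survival factor FGF2 is produced as the response proceeds. Acute phase proteins such as those of Serpina3n and Lcn2 mark reactive glia in the brain and retina.

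The arrays compared 3 adult Trim9 KO mice with 3 WT littermates, 1 Affymetrix mouse genome array for each retina sample. The KO animals lack exon 1 of Trim9, an E3 ubiquitin ligase gene, after crossing with CMV-cre mice, whose recombinase is broadly active, so the loss is not limited to a retinal cell type. The labels name no injury or other treatment for either genotype. They call the tissue adult retina, although 1 protocol note speaks of embryos. The study made the arrays to look for differences in transcripts without choosing a cell type in advance. The labels do not give sex or an age other than adult. With 3 arrays for each genotype, precision is low throughout.

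Signals are linear intensities scaled by the authors to the same trimmed mean on each array, and they were compared as log2(intensity + 16), which understates changes of dim probe sets. Median intensities still differed, at 807, 460 and 252 in Trim9 KO and 218, 675 and 318 in WT replicates 1, 2 and 3. The brightest Trim9 probe set read 1498, 497 and 367 in Trim9 KO replicates 1, 2 and 3, against 4226, 1767 and 1667 in WT replicates 1, 2 and 3, so that each KO retina had less signal than any WT retina. The same held for another of the 4 Trim9 probe sets (log2 fold change -2.48), while the other 2 overlapped between genotypes, at -0.77 and -0.58, and on the last of these Trim9 KO replicate 1 (1959) read above WT replicates 1 (697) and 2 (1075). Where the probe sets lie with respect to exon 1 was not examined here, so Trim9 checks the labels only in part. Trim9 KO replicate 1 correlated with the other arrays at 0.47 to 0.52 (Pearson's r across probe sets), and the other pairs of arrays at 0.66 to 0.89. The 3' to 5' ratios of the Actb and Gapdh controls, which grow with RNA degradation, did not order the arrays alike. The ratio of Actb was 2.83, 94.5 and 90.5 in Trim9 KO replicates 1, 2 and 3 and 20.2, 9.87 and 3.43 in WT replicates 1, 2 and 3. That of Gapdh was 134, 153 and 163 in Trim9 KO replicates 1, 2 and 3 and 310, 82.0 and 0.905 in WT replicates 1, 2 and 3. Rod markers had a summed intensity over 8 measured genes of 830274 to 3653819 in KO and 823146 to 2267387 in WT retinas, with 2 of 8 means higher in KO (median log2 fold change -0.39). Of the 8, Sag, Gnat1, Pde6b, Nrl, Pdc and Gngt1 were bright on every array, whereas Prph2 read 32.3 in Trim9 KO replicate 3 and 18.5 in WT replicate 1. In whole retina, fewer cells of a type and less RNA per cell cannot be told apart.

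Across the 10 genes, 8 had a higher mean in Trim9 KO retinas and 2, Bcl3 and Cebpd, a lower one. Over all genes, 55.2% had a higher mean in KO retinas. The median log2 fold change of the 10 genes (Trim9 KO over WT) was 0.52, beside 0.14 over all genes, and single genes ranged from -1.80 for Bcl3 to 1.56 for Fgf2. For 0 of the 10 genes did the KO arrays all lie on one side of the WT arrays, where 8.24% of all genes had no overlap. No probe set of the array passed an adjusted p of 0.05 in limma (0% called), and the lowest adjusted p among the 19 probe sets was 0.999. At an unadjusted p under 0.05 stood 1 of the 19 probe sets, a dimmer one for Socs3, and 2.88% of all probe sets. Markers of the pigment epithelium, a layer behind the retina, had 6 of 6 means higher in KO retinas (median log2 fold change 0.78), with sums of 4656 to 26413 in KO and 4283 to 6122 in WT retinas, none at 0 and all 6 overlapping between genotypes, and their part in the values of the 10 genes was not tested.

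The count of higher means depended on how the arrays were scaled. It was 8 of 10 on the deposited scale, 7 of 10 after quantile normalization and 5 of 10 when the array medians were made equal. That last setting lowers the log2 fold change of every gene by the same amount (-0.32), so a gene with a positive value under that size turns by construction. For the same reason the gap in median between the 10 genes and all genes, 0.39, cannot change in that setting. The median over all genes moved with the 10 genes, being 0.024 after quantile normalization (0.42 for the 10 genes) and -0.19 with equal array medians (0.20 for the 10 genes). Without WT replicate 2 the 10 genes had a median of 0.15, beside 0.25 over all genes.

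**Figure D1:**
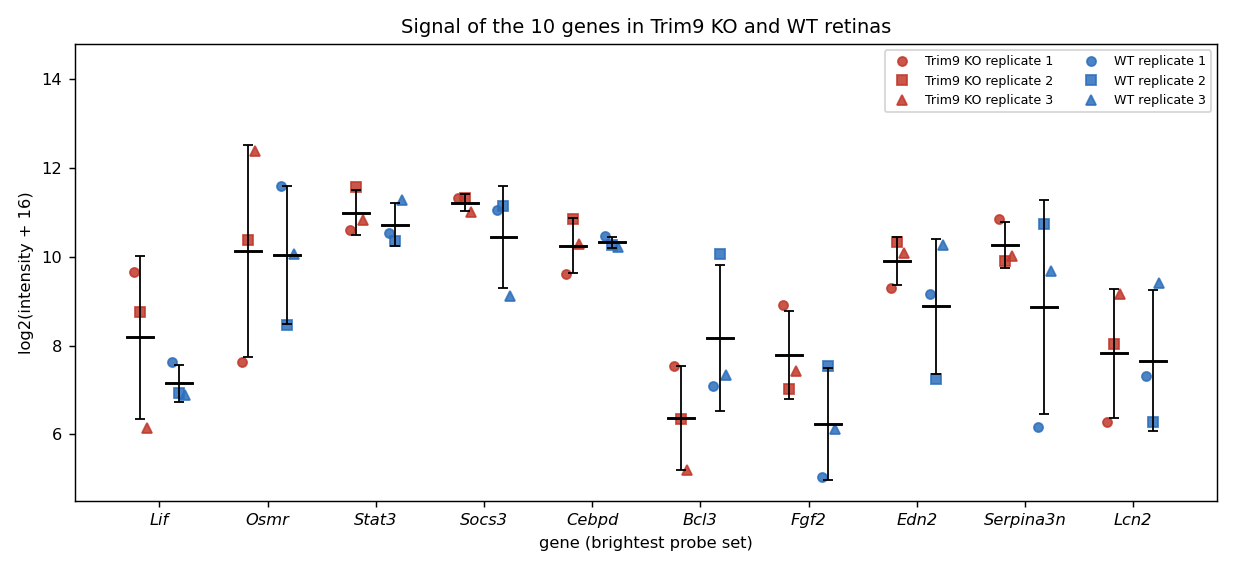
Signal (y axis, log2 of intensity + 16) of the brightest probe set of each of the 10 genes (x axis) in Trim9 KO (red) and WT (blue) retinas, with 1 point per array, the replicate number given by the symbol, lines for means and bars for SD (n = 3 each). KO and WT arrays overlap for every gene, and the largest differences in means are those of Bcl3 (-1.80) and Fgf2 (1.56).

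Among the secreted ligands, Lif, the cytokine that starts the response, was dim. Its brighter probe set read 798, 416 and 54.4 in Trim9 KO replicates 1, 2 and 3, against 182, 106 and 103 in WT replicates 1, 2 and 3. Thus by intensity 2 KO arrays were above all WT arrays and the other was the lowest of all 6. The percentiles within each array were 49.7, 47.1 and 21.9 in KO, against 46.1, 21.9 and 26.8 in WT retinas. By this rank Trim9 KO replicates 1 and 2 were close to WT replicate 1. The mean log2 intensity was 8.19 ± 1.83 in KO and 7.15 ± 0.41 in WT retinas (SD, n = 3 each). The log2 fold change, 1.04 with a standard error of 1.10, was 0.29 without Trim9 KO replicate 1 and 2.06 when Trim9 KO replicate 3 was left out instead. The other Lif probe set read 398, 41.5 and 282 in KO, against 26.8, 72.1 and 122 in WT retinas (log2 fold change 1.26, standard error 1.07). On it too 2 KO arrays were above all WT arrays, but the array that fell among the WT values was Trim9 KO replicate 2, whereas on the brighter probe set it was Trim9 KO replicate 3 that was low.

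Fgf2, which encodes a growth factor that protects photoreceptors, had the highest log2 fold change of the 10 genes. Its single probe set read 463, 114 and 155 in Trim9 KO replicates 1, 2 and 3, against 16.6, 170 and 53.2 in WT replicates 1, 2 and 3. WT replicate 2 lay above 2 of the KO arrays, and the other WT arrays lay below all of them. The means were 7.78 ± 0.99 in KO and 6.23 ± 1.26 in WT retinas, a log2 fold change of 1.56 (standard error 1.05) that ranged from 0.96 to 2.21 as each array was left out. The mean signal of the probe set stood above that of 19.8% of all probe sets, so the gene was read near the dim end of the array.

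Edn2, which encodes the vasoactive peptide endothelin 2, was of intermediate brightness. It read 618, 1276 and 1071 in Trim9 KO replicates 1, 2 and 3, against 555, 136 and 1211 in WT replicates 1, 2 and 3. The KO values lay inside the WT range except for Trim9 KO replicate 2, and the low WT mean came mainly from WT replicate 2. The means were 9.91 ± 0.54 in KO and 8.89 ± 1.52 in WT retinas (log2 fold change 1.02, standard error 1.05). Without WT replicate 2 the log2 fold change was 0.20.

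Osmr, the receptor subunit for oncostatin M, was the most variable of the 10 genes in KO retinas. Its brightest probe set read 181, 1316 and 5354 in Trim9 KO replicates 1, 2 and 3, against 3075, 339 and 1052 in WT replicates 1, 2 and 3. The KO arrays thus held both the lowest and the highest value, and the means were alike at 10.13 ± 2.39 in KO and 10.04 ± 1.56 in WT retinas (log2 fold change 0.089, standard error 1.33). Apart from the uniform shift of equal array medians, the sign turned in 4 of 13 settings, among them the fit without Trim9 KO replicate 3 (-1.04). On the other 2 Osmr probe sets, Trim9 KO replicate 3 was the lowest array, at 16.04 and 18.8, WT replicate 2 was the highest, at 787 and 480, and the log2 fold changes were -0.96 (standard error 1.20) and -1.31 (standard error 1.10). The brightest probe set thus differed from the other 2, which had the same highest and the same lowest array.

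Stat3, the transcription factor at the centre of the response, was among the brighter of the 10 genes and varied least between arrays together with Cebpd. Its brightest probe set read 1539, 3013 and 1804 in Trim9 KO replicates 1, 2 and 3, against 1460, 1305 and 2490 in WT replicates 1, 2 and 3. Both genotypes covered much the same range, and the highest array was 2.31 times the lowest. The means were 10.999 ± 0.50 in KO and 10.73 ± 0.49 in WT retinas, a log2 fold change of 0.27 (standard error 0.92), which was -0.012 without Trim9 KO replicate 2. The other 3 probe sets were dimmer and had log2 fold changes of 0.58, -0.45 and -0.28, with standard errors of 1.03 to 1.47. STAT3 acts through phosphorylation of its protein, which these arrays do not measure.

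Socs3, whose product binds JAK and gp130 and shuts the signal off, was read by 3 probe sets that did not give the same picture. The brightest read 2554, 2555 and 2036 in Trim9 KO replicates 1, 2 and 3, against 2112, 2260 and 543 in WT replicates 1, 2 and 3. All arrays but WT replicate 3 were close together, and the log2 fold change of 0.77 (standard error 0.97, means 11.22 ± 0.19 in KO and 10.44 ± 1.14 in WT retinas) was 0.12 without that array. The next probe set read 318, 1319 and 506 in KO, against 316, 1772 and 376 in WT retinas, with means that were nearly the same (9.26 ± 1.02 in KO and 9.26 ± 1.34 in WT).
The dimmest of the Socs3 probe sets, the only one with a plain _at suffix, was the one that separated the genotypes. It read 947, 876 and 341 in Trim9 KO replicates 1, 2 and 3, against 30.1, 20.9 and 205 in WT replicates 1, 2 and 3. Every KO array was above every WT array, at a log2 fold change of 3.23 (standard error 1.05, unadjusted p = 0.01, adjusted p = 0.999 in limma). The log2 fold change was 2.74 to 4.03 as each array was left out. This was the only 1 of the 19 probe sets whose genotypes did not overlap, where 7.99% of all probe sets that name 1 gene did not, and it was singled out after its values were seen. In Affymetrix naming the suffix _x_at, carried by both of the other Socs3 probe sets, marks probes that may also bind similar sequences of other transcripts, whereas a plain _at suffix carries no such mark. Which Socs3 probe set reads the transcript best was not tested. On the plain _at probe set WT replicate 2 was near the floor, at percentile 0.77 of its array.

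**Figure D2:**
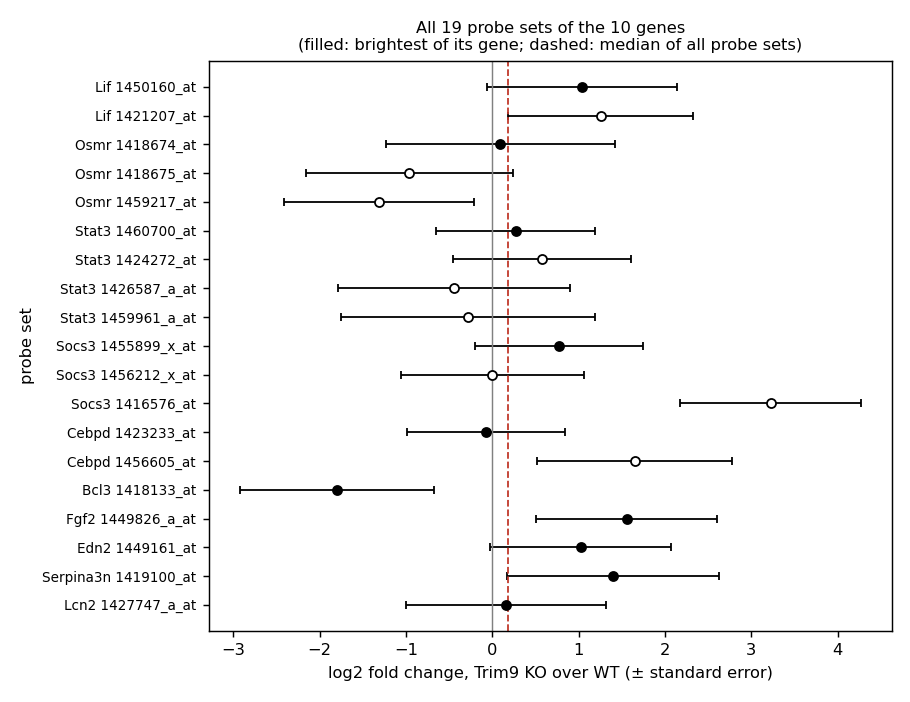
Log2 fold change, Trim9 KO over WT (x axis), with its standard error for each of the 19 probe sets of the 10 genes (y axis), the brightest of each gene filled, and the median of all probe sets dashed (0.18). The dimmest Socs3 probe set lies at 3.23, apart from the other Socs3 probe sets at 0.77 and 0.00042.

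STAT dimers bind a palindrome of the form TTCNNNGAA. In RefSeq start-site windows of 300 bases (250 before the start and 50 after it, assembly GRCm38.p6), 9 of the 10 genes had a window, and the palindrome occurred in 1 of them, that of Socs3. It occurred in 8.30% of all 32851 windows, and since it is its own reverse complement both strands were covered. The stricter form TTCCNGGAA was in 0 of the 9 windows and in 1.15% of all windows. The Socs3 window is shown as the 1 of these 9 with the palindrome, beside that of Gfap, the glial filament gene described below. The palindrome is in capitals, and each window runs from 250 bases before the start to 10 after it. Both read from the minus strand, at chr11:117969357-117969616 for Socs3 and chr11:102897191-102897450 for Gfap.
Socs3: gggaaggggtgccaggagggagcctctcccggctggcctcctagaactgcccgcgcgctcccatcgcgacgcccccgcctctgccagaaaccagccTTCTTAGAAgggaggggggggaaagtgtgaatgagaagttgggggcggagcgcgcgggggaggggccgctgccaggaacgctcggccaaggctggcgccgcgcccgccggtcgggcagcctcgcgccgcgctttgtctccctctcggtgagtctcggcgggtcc
Gfap: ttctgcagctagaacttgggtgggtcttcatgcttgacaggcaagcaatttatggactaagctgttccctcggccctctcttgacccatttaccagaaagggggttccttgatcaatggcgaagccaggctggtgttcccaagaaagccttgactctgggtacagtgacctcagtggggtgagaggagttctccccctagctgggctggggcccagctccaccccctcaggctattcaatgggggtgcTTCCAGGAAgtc
The palindrome began 154 bases before the start of Socs3 and 2 bases before that of Gfap. A match of letters does not show that STAT3 is bound there, and these arrays do not measure binding. Both genes come from lists chosen with earlier results of these data known. Each has a probe set with every KO array above every WT array. The other probe sets of both genes overlapped between genotypes (Socs3 at 0.77 and 0.00042, Gfap at 1.01 and -0.12). Windows of the other pathway genes were not counted, so a link of the palindrome with genotype was not tested.

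Among the transcription factors downstream, Cebpd encodes C/EBP delta, a factor of the acute phase response. Its brighter probe set read 773, 1826 and 1234 in Trim9 KO replicates 1, 2 and 3, against 1405, 1223 and 1184 in WT replicates 1, 2 and 3. The WT arrays were close together and lay inside the KO range. The means were 10.25 ± 0.61 in KO and 10.33 ± 0.13 in WT retinas, a log2 fold change of -0.073 (standard error 0.91), which turned to 0.24 without Trim9 KO replicate 1. The other Cebpd probe set read 2416, 718 and 519 in KO, against 948, 78.0 and 327 in WT retinas. Its log2 fold change was 1.65 (standard error 1.13), and WT replicate 1 lay above 2 of the KO arrays.

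Bcl3, an IκB family protein that works with NF-κB in the nucleus, had the lowest log2 fold change of the 10 genes. Its probe set read 170, 65.3 and 20.7 in Trim9 KO replicates 1, 2 and 3, against 120, 1047 and 147 in WT replicates 1, 2 and 3. Trim9 KO replicate 1 lay above 2 of the WT arrays, and WT replicate 2 stood far above every other array. The means were 6.36 ± 1.17 in KO and 8.16 ± 1.64 in WT retinas, a log2 fold change of -1.80 (standard error 1.13). The difference was -0.85 without WT replicate 2 and stayed negative in every setting run.

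Among the secreted acute phase proteins, Serpina3n, a serine protease inhibitor of reactive astrocytes, read 1839, 947 and 1016 in Trim9 KO replicates 1, 2 and 3, against 55.2, 1707 and 809 in WT replicates 1, 2 and 3. WT replicate 1 alone was low, and the other WT arrays fell in or near the KO range. The means were 10.26 ± 0.52 in KO and 8.86 ± 2.41 in WT retinas, a log2 fold change of 1.40 (standard error 1.23), and without WT replicate 1 it was 0.041.
Lcn2, which encodes the iron-scavenging protein lipocalin 2, read 61.6, 247 and 555 in Trim9 KO replicates 1, 2 and 3, against 142, 61.3 and 664 in WT replicates 1, 2 and 3. The values of the genotypes interleaved, with means of 7.82 ± 1.45 in KO and 7.66 ± 1.599 in WT retinas (log2 fold change 0.16, standard error 1.16). Apart from the uniform shift of equal array medians, the sign turned in 4 of 12 settings, among them the fit without WT replicate 2 (-0.53), and the value was 1.04 without WT replicate 3. Lcn2 is also a product of neutrophil granules. The 8 neutrophil markers had a summed intensity of 1971 to 8822 in KO and 792 to 6175 in WT retinas, with 5 of 8 means higher in KO, none of them at 0, and their part in the Lcn2 signal was not tested.

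**Figure D3:**
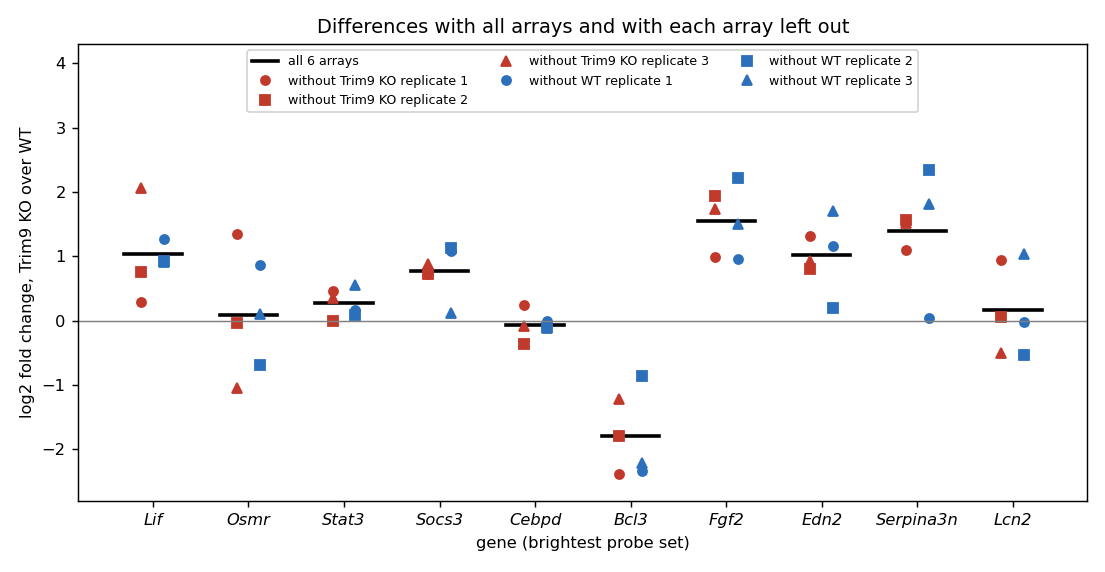
The y axis gives the log2 fold change of Trim9 KO over WT for each of the 10 genes (x axis), with all 6 arrays (black line) and with each array left out (red, a Trim9 KO array; blue, a WT array; the symbol gives the replicate). The value of Serpina3n comes to 0.041 without WT replicate 1, that of Edn2 to 0.20 without WT replicate 2 and that of Socs3 to 0.12 without WT replicate 3.

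The differences in the 10 genes thus rested on different arrays. Leaving out WT replicate 1 brought Serpina3n near 0, WT replicate 2 did so for Edn2, WT replicate 3 for the brightest Socs3 probe set, and Trim9 KO replicate 1 lowered Lif to 0.29. Of the 5 genes with several probe sets, 3 (Osmr, Stat3 and Cebpd) had probe sets on both sides of 0. Over all 19 probe sets, 13 had a higher mean in KO retinas.

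The genes did not go up and down together from retina to retina. The highest array was Trim9 KO replicate 2 for 4 genes, Trim9 KO replicate 1 for 3, and Trim9 KO replicate 3, WT replicate 2 and WT replicate 3 for 1 each. Trim9 KO replicate 2 was above the gene's own mean for 9 of 10 genes, and WT replicate 1 for 3 of 10. Averaged over the 10 genes, the deviation from each gene's mean was 0.10, 0.38 and 0.18 in Trim9 KO replicates 1, 2 and 3, against -0.47, -0.17 and -0.029 in WT replicates 1, 2 and 3 (log2). On this average all KO arrays lay above all WT arrays, as a description of a list chosen with these values known. By rank within each array, which does not depend on the scaling, the genotypes overlapped: the median percentile of the 10 genes was 47.6, 73.1 and 76.5 in KO, against 57.2, 50.1 and 64.2 in WT retinas.

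**Figure D4:**
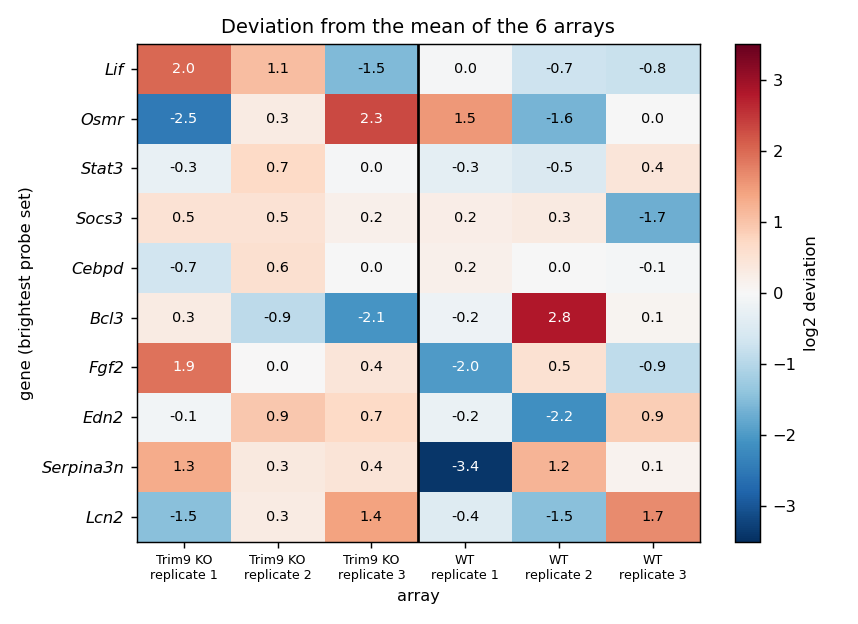
Deviation of each array (x axis, Trim9 KO left of the line and WT right of it) from the mean of the 6 arrays, on the log2 scale given by colour and number, for each of the 10 genes (y axis). High and low cells are scattered over both genotypes, from -3.41 for Serpina3n in WT replicate 1 to 2.79 for Bcl3 in WT replicate 2.

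Other genes of the pathway were read from lists that did not include the 10 genes. Of 62 such genes, 40 had a higher mean in Trim9 KO retinas and 22 a lower one (median log2 fold change 0.29). With equal array medians, which lower every gene alike, the median was -0.027. None passed an adjusted p of 0.05, 2 (Gfap and Stat2) had an unadjusted p under 0.05, where 2.56% of all genes did, and 5 had every KO array above every WT array, where 5.35% of all genes did. In 2 genes every KO array was below every WT array, where 2.89% of all genes were.

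Of 6 measured cytokines of the IL-6 family, to which LIF belongs, 5 had a higher mean in KO retinas (median 1.98). Osm, encoding oncostatin M, the ligand of the Osmr product, read 4672, 1064 and 386 in Trim9 KO replicates 1, 2 and 3, against 303, 156 and 255 in WT replicates 1, 2 and 3. All KO arrays were above all WT arrays, and the log2 fold change of 2.37 (standard error 1.09) was 1.42 without Trim9 KO replicate 1. Clcf1 (1.88) and Il6 (2.08), which encode further ligands of gp130, had overlapping genotypes, and Il11 stood at -1.10. Il6 was dim, down to 7.38 in Trim9 KO replicate 3 and 1.19 in WT replicate 3. Among 5 receptor genes, Il6st, which encodes gp130, stood at 0.83 (standard error 1.02) and Lifr, the LIF receptor, at -0.52 (standard error 1.15). Cntfr, the receptor for ciliary neurotrophic factor, read 2960, 2601 and 2012 in KO, against 1797, 1987 and 986 in WT retinas, all KO arrays above all WT arrays (log2 fold change 0.71, standard error 0.91), while its other probe set stood at -0.056. Il6ra stood at 0.13.

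Of 9 JAK and STAT genes, 4 had a higher mean in KO retinas (median -0.49). Jak1, a kinase bound to gp130, read 1125, 1763 and 3017 in Trim9 KO replicates 1, 2 and 3, against 3221, 5646 and 3551 in WT replicates 1, 2 and 3, with no KO array as high as any WT array (log2 fold change -1.14, standard error 0.93). Its other 2 probe sets overlapped, at 0.17 and -0.88. The other kinases Jak2 (0.92) and Tyk2 (-0.49) and the factor Stat5a (-0.89) overlapped between genotypes. Stat2, which acts in interferon signalling, is named for its unadjusted p, after its values were seen. It read 910, 652 and 190 in KO, against 17.3, 91.3 and 81.2 in WT retinas (log2 fold change 2.84, standard error 1.02, unadjusted p = 0.018), whereas its other probe set stood at -0.74 (standard error 1.45). Of 9 feedback and inhibitor genes, 6 had a higher mean (median 0.48), with Cish at 1.25, Socs2 at 0.78, Socs1 at 0.48 and Pias3, an inhibitor of STAT3, at -1.19. Pias1, likewise named after its values were seen since its genotypes did not overlap, read 1940, 1941 and 1725 in KO, against 3260, 7199 and 6718 in WT retinas (log2 fold change -1.53, standard error 0.91). Its other 3 probe sets overlapped between genotypes, at 0.53, -1.36 and -0.17.

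Gfap, the intermediate filament gene that reactive Müller glia switch on and astrocytes express at rest, was the first of 12 measured glial reactivity genes, of which 10 of 12 had a higher mean in KO retinas (median 0.72). Its brightest probe set, with the suffix _s_at, read 1741, 2598 and 1043 in Trim9 KO replicates 1, 2 and 3, against 672, 82.1 and 293 in WT replicates 1, 2 and 3. All KO arrays were above all WT arrays, and the log2 fold change was 2.62 (standard error 1.04, unadjusted p = 0.028, adjusted p = 0.999 in limma), ranging from 1.88 to 3.28 as each array was left out. The other 2 Gfap probe sets overlapped between genotypes, at 1.01 (standard error 1.03) and -0.12 (standard error 1.52). The second of these is the only Gfap probe set with a plain _at suffix. It read 1619, 37.9 and 32.4 in KO, against 38.8, 90.9 and 917 in WT retinas. Trim9 KO replicate 1 and WT replicate 3 were thus high and the other 4 arrays low. Vim, another glial filament, stood at 0.97 (standard error 0.97), Cd44 at 0.34 and Nes at 0.11.
Of 10 resting Müller glia markers measured, 2 had a higher mean in KO retinas, and their summed intensity was 463222 to 564564 in KO and 233065 to 684610 in WT retinas. Markers of microglia, the immune cells of the retina, summed to 24566 to 39722 in KO and 7704 to 28866 in WT retinas, with 6 of 10 means higher and none at 0, and their part in the glial reactivity values was not tested. Of 3 astrocyte markers measured, Gfap among them, 2 had a higher mean, with sums of 2538 to 4617 in KO and 1455 to 3043 in WT retinas.

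**Figure D5:**
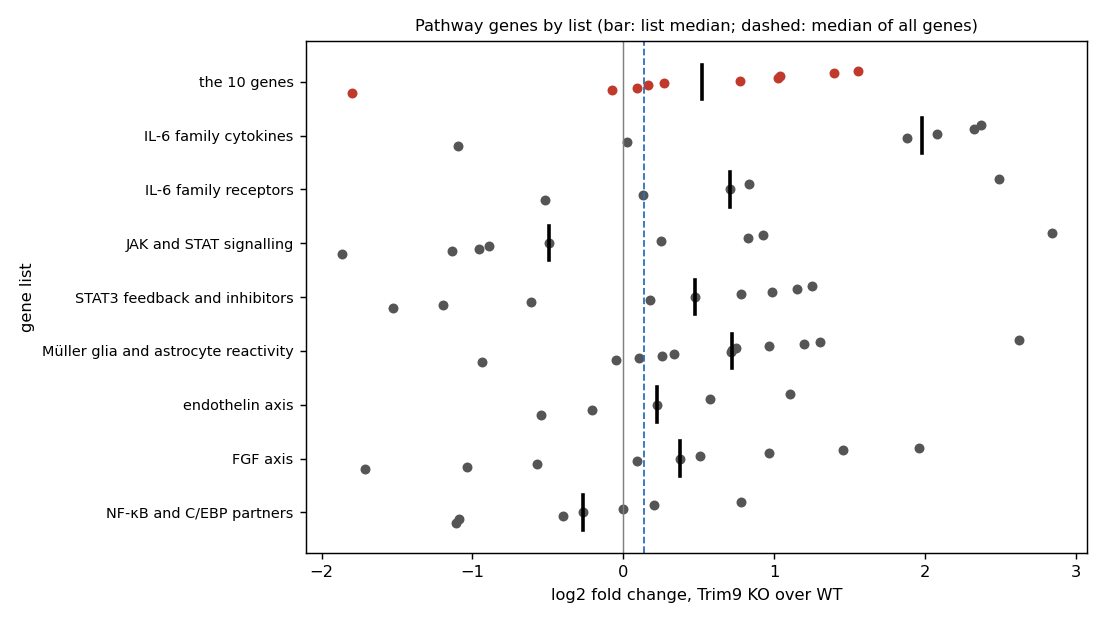
Log2 fold change, Trim9 KO over WT (x axis), of the 10 genes (red) and of the measured genes of 8 pathway lists (grey) that exclude them (y axis), with black bars for list medians and a dashed line for the median of all genes (0.14). Genes of each list fall left and right of 0, and list medians run from -0.49 for JAK and STAT signalling to 1.98 for the IL-6 family cytokines.

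Genes around Edn2 and Fgf2 were examined likewise. Of 5 endothelin genes 3 had a higher mean in KO retinas (median 0.22). Ednrb, the endothelin receptor of Müller glia and astrocytes, stood at -0.55, Edn1 at 1.10 and the processing enzyme gene Ece1 at 0.22. Edn3 read 748, 490 and 385 in Trim9 KO replicates 1, 2 and 3, against 353, 369 and 315 in WT replicates 1, 2 and 3, all KO arrays above all WT arrays by a small margin (log2 fold change 0.57, standard error 0.90). This Edn3 probe set carries the suffix _x_at. Of 9 genes of the FGF axis 6 had a higher mean (median 0.38), with the receptors Fgfr3 at 1.96, Fgfr1 at 0.093 and Fgfr2 at -1.04, and Fgf1 at -0.57. Of 7 NF-κB and C/EBP genes, partners of Bcl3 and Cebpd, 2 had a higher mean (median -0.27), with Cebpb at -1.11, Relb at -1.09, Nfkb2 at -0.40 and Rela at -0.27.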

How the data were processed

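RNA of adult retinas from 3 Trim9 KO mice and 3 WT littermates was read on Affymetrix mouse genome arrays. The deposited table holds linear intensities that the authors scaled so that each array has a mean of 1500 without the lowest and highest 2% of probe sets. MAS5 is named, with no version, in the submitters' processing notes, whereas the methods state RMA. The values are linear, as MAS5 writes them. No column was left without a sample. After 64 of 45101 probe sets (controls) were left out, log2(intensity + 16) was fitted with limma 3.58.1 in R 4.3.3, Trim9 KO over WT, no block, two-sided, with Benjamini-Hochberg adjustment over 45037 probe sets, after a check on simulated data. Genes were read by the brightest of the 34945 probe sets that name 1 gene in the platform annotation, and 99.4% of these matched the gene reference by gene number. The 10 genes and the pathway and marker lists were chosen with earlier results of these data known. In the pathway lists the first 4 measured genes were named whatever their values, Stat2 and Pias1 after their values were seen. Other settings tried were array medians made equal, quantile normalization, a pseudocount of 1 or 64, a filter on dim probe sets, a replicate block, a trend with a robust prior, array weights, all probe sets of a gene averaged and each array left out. Figures were drawn with Python 3.11.15 and matplotlib 3.10.9.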

Additional observations from a re-analysis of the deposited data

How the results depend on the processing

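In every setting run, 0 probe sets passed an adjusted p of 0.05. The count at an unadjusted p under 0.05 was 1296 of 45037 probe sets (2.88%), 3637 with array weights and 854 to 2556 as each array was left out. It was 632 when only probe sets above the median brightness were kept, where fewer were tested. Genes without overlap between genotypes numbered 1499 of 18193, 954 of the 12056 brighter genes, and 2421 to 4200 with an array left out, where fewer arrays have to be apart. The median log2 fold change of the 10 genes, 0.52, was 0.20 with equal array medians, 0.71 with array weights, 0.90 with all probe sets of a gene averaged and 0.15 to 0.83 with an array left out. For the other 62 pathway genes, 0.29 became -0.027 with equal array medians and 0.285 to 0.52 with an array left out. Causes other than the shift described below were not tested. Same-numbered Trim9 KO and WT arrays did not deviate together (r of deviations from the group means -0.23, -0.081 and 0.033). With 3 arrays for each genotype, this cannot show whether the numbers pair littermates. A replicate block gave 864 probe sets at an unadjusted p under 0.05 and 0 after adjustment. Equal array medians shift every gene by -0.32. Apart from that setting, the sign of single genes turned in 4 of 13 settings for Osmr, 4 of 12 for Lcn2, 4 of 13 for Cebpd and 1 of 13 for Stat3, and in none for the other 6 genes, which kept it with equal array medians too. Dim probe sets (4 of the 10 genes were at or below the median brightness) limit what these arrays can show.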

Other observations

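Outside all lists, the genes whose pattern over the 6 arrays was most like the average deviation of the 10 genes were Gpt, an alanine aminotransferase gene (Pearson's r = 0.981), Adcy5, an adenylyl cyclase gene (0.955), 1700051A21Rik (0.944), Fzd9, a Wnt receptor gene (0.939), and Ccdc74a (0.938). They were taken from 11970 genes brighter than the median probe set, the arrays share scaling and 3 arrays of each genotype, and the values are a description of these 6 arrays. Gpt read 8.76, 10.44 and 9.48 in Trim9 KO replicates 1, 2 and 3, against 6.90, 7.90 and 8.88 in WT replicates 1, 2 and 3 (log2 intensity). Among the 10 genes themselves, the r of a gene with the average of the other 9 was from -0.74 for Bcl3 to 0.56 for Stat3.

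A second probe set for Edn3, with the suffix _s_at, read 506, 377 and 220 in Trim9 KO replicates 1, 2 and 3, against 28.4, 134 and 20.2 in WT replicates 1, 2 and 3. Its log2 fold change of 2.55 (standard error 0.99, unadjusted p = 0.025, adjusted p = 0.999 in limma) stood beside 0.60 and -0.28 on the other dimmer Edn3 probe sets and 0.57 on the brightest one. This Edn3 probe set was singled out after its values were seen. Of all probe sets 2.88% had an unadjusted p under 0.05 in limma, and 7.99% of those naming 1 gene had no overlap. Of 8 neutrophil markers, 5 had a higher mean in KO retinas, 6 overlapped between genotypes, and the lowest log2 fold change was -0.70. In the other 2 every KO array was above every WT array, where 5.35% of all genes were. Of these, Ltf, another granule protein gene, read 1905, 921 and 550 in KO, against 59.0, 446 and 286 in WT retinas, and Mpo 561, 867 and 337 in KO, against 175, 138 and 151 in WT retinas. The log2 fold change was 2.20 for Ltf (standard error 1.05) and 1.73 for Mpo (standard error 0.92). These genes were singled out after their values were seen.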
